A study of Rattus norvegicus with 36 samples.

Results

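The miRNAs described here were rno-miR-203a, rno-miR-205, rno-miR-31a and rno-miR-375, taken as every row of the deposited table that carries 1 of these names with or without an arm suffix. The rule found 7 of the 723 mature miRNAs in the table. The 4 major arms, rno-miR-203a-3p, rno-miR-205, rno-miR-31a-5p and rno-miR-375-3p, passed the filter on low counts that kept 457 miRNAs in all. The other arms were almost or entirely missing from brain: rno-miR-203a-5p and rno-miR-375-5p had 0 counts in all 36 libraries, and rno-miR-31a-3p had 10 counts over 4 libraries. They passed no filter and were not tested.

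Small RNA was sequenced from 3 dissected regions, the nucleus accumbens (NAc) of the ventral striatum and its prelimbic (PL) and infralimbic (IL) cortical inputs, of 12 male heterogeneous stock (HS) rats, an outbred population. There were 3 groups of 4 rats. Naive rats had no cocaine. Withdrawal rats had self-administered intravenous cocaine with long daily access until intake escalated, and were killed 16 h after the last session according to the labels (the study's methods give a slightly longer interval). Abstinence rats had the same escalated self-administration followed by 4 weeks of forced abstinence. The methods describe the groups as age-matched when self-administration began, so the abstinence rats were older than the withdrawal rats when killed, and time since cocaine cannot be told apart from that age difference. The question of the group comparisons is which brain miRNAs differ at withdrawal or after abstinence. Each region was microdissected from frozen slices of 1 brain, so every library mixes neurons, glia, vessels and any membrane or ependyma in the piece, and for each result below fewer cells of a type and less RNA per cell cannot be told apart. Rats are numbered within their group, and the same number is the same rat in all 3 regions.

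A mature miRNA guides an Argonaute complex to messenger RNAs through its seed, the bases near the 5′ end that pair with the target, and lowers the output of those messages. All 4 miRNAs are best known outside the brain. miR-203 restrains the stem-like state of skin keratinocytes as they differentiate. miR-205 is a marker of stratified and glandular epithelium and represses the ZEB transcription factors that drive the epithelial to mesenchymal transition, and miR-31 is abundant in hair follicle and skin and is changed in many carcinomas. miR-375 was described first in pancreatic islets, where it limits insulin secretion, and is high in pituitary, gut and other endocrine cells.

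The mature sequences are shown because the seed decides which messages each miRNA can pair with. They are from RefSeq (GRCr8), written 5′ to 3′ with seed bases 2 to 8 in capitals. The neighbour rno-miR-203b-3p is printed beside them because it comes from the opposite strand of the same hairpin locus.
rno-miR-203a-3p: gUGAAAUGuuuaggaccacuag
rno-miR-205: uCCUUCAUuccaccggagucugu
rno-miR-31a-5p: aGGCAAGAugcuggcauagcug
rno-miR-375-3p: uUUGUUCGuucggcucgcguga
rno-miR-203b-3p: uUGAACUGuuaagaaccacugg
The 4 seeds were all different, and none of them occurred in any other of the 645 miRNAs of the table (of 723) that had a RefSeq sequence. The label groups the miRNAs by the tissue they are known from, and the seeds show that they do not form a sequence family.

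The loci also lie on 4 different chromosomes of GRCr8, each named here by its mature arm. rno-miR-203a-3p (gene Mir203) is at chr6:137020756-137020777 on the plus strand, between the protein-coding genes Aspg and Kif26a. Mir203 is overlapped on the minus strand by Mir3545, which gives rno-miR-203b-3p at chr6:137020716-137020737. The minor arm rno-miR-203a-5p overlaps rno-miR-203b-3p by 20 bases, all 20 of them complementary. rno-miR-205 (Mir205) is at chr13:107564588-107564610 on the minus strand, in no annotated gene of the table other than its own, between Camk1g and Plxna2. rno-miR-31a-5p (Mir31) is at chr5:108714906-108714927 on the minus strand, inside the long noncoding RNA LOC130062807 and overlapping Mir3554. rno-miR-375-3p (Mir375) is at chr9:83906591-83906612 on the minus strand. Its hairpin overlaps Cryba2, a crystallin gene, and the annotated gene LOC134480387, and lies between Fev, a transcription factor of serotonin neurons, and Cfap65. Whether an overlap lies in an exon or an intron was not determined here.

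Library totals ran from 6192155 to 18877136 counts (median 10739453.5), and RNA integrity numbers (RIN) from 7.4 to 9.3. Levels are given as CPM, the counts of a miRNA scaled to a common library size after TMM normalization, and 3 counts, taken as the floor for a library, corresponded to 0.159 to 0.484 CPM. The 4 miRNAs were rare. By mean CPM over all libraries rno-miR-375-3p ranked 204th, rno-miR-31a-5p 246th, rno-miR-205 306th and rno-miR-203a-3p 317th among the 457 miRNAs tested. Their totals over 36 libraries were 15627, 8900, 3149 and 3142 counts. All 4 were nevertheless detected in every library, with at least 98, 101, 9 and 6 counts in the same order. The tissue label was met: the summed level of 16 neuronal miRNAs was between 164503 and 624036 CPM in every library. Most counts of this list were of rno-miR-128-3p (100321315 over 36 libraries). rno-miR-9a-5p had 15719609 and rno-miR-124-3p 2255053.

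**Figure D1:**
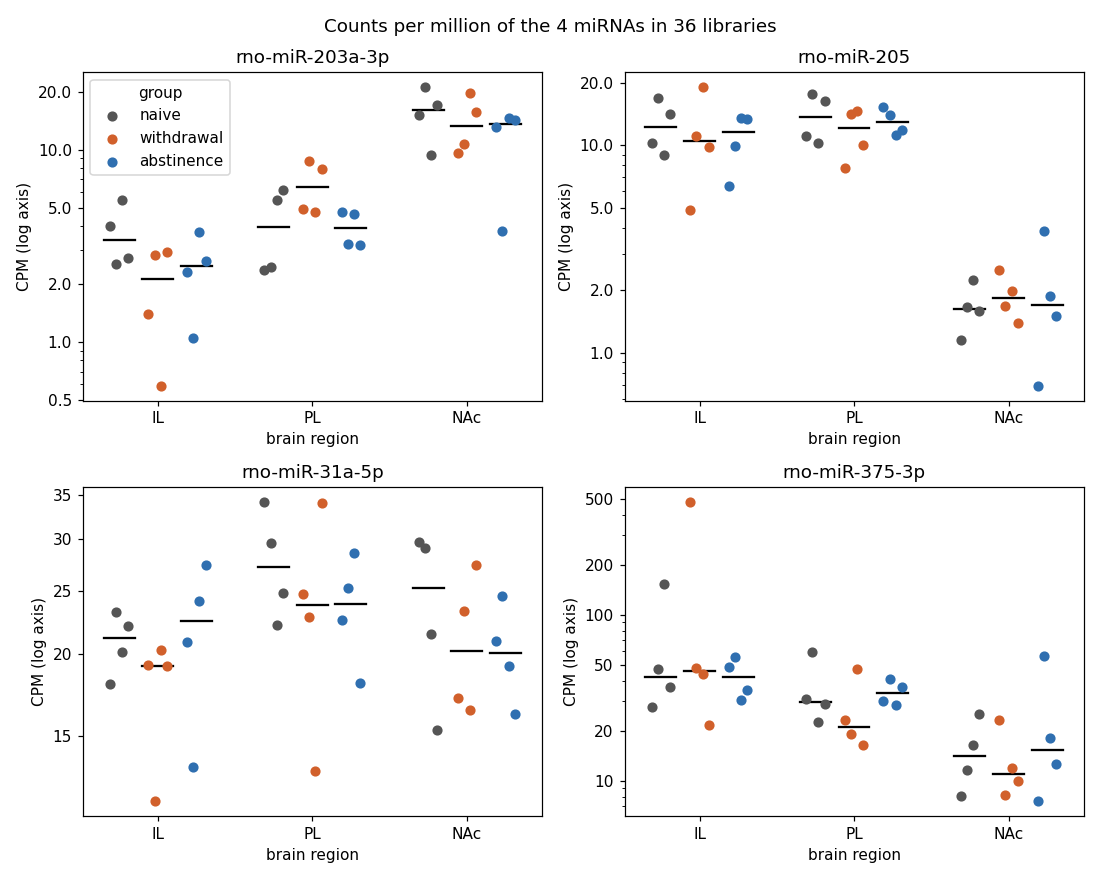
CPM (log axis, a separate scale for each miRNA) in the 36 libraries, by region and group, with each point 1 library and each bar the median of 4 rats. rno-miR-203a-3p is highest and rno-miR-205 lowest in the NAc, rno-miR-31a-5p is at about the same level in all regions, and 1 IL library of the withdrawal group holds rno-miR-375-3p at 476 CPM.

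Some libraries stood apart, and results are given with and without them where they bear on a value. In the IL, rno-miR-375-3p was at 476 CPM in withdrawal rat 1 and at 153 CPM in naive rat 3, while the other 10 IL libraries were between 21.5 and 55.7 CPM (median 40.4). The same libraries held rno-miR-34c-5p, a miRNA of multiciliated cells, at 216 and 210 CPM against 30.8 to 56.9 CPM (median 46.5) in the other 10. In the NAc, abstinence rat 2 had the lowest rno-miR-203a-3p (3.76 CPM against 9.44 to 21.2 in the other 11), the highest rno-miR-205 (3.84 against 0.692 to 2.51) and the highest rno-miR-375-3p (56.1 against 7.53 to 25.1). Each of these values lay on the cortical side of the NAc range. rno-miR-31a-5p, at 24.5 CPM, was inside the range of the other NAc libraries (15.3 to 29.6).

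A measure of regional position was added after these values were seen. For each library, 19 to 25 other miRNAs that differed by at least 2 log2 units between cortex and NAc in the remaining 11 rats were used to place it on a scale with 0 at the cortical mean and 1 at the NAc mean. The NAc library of abstinence rat 2 was at 0.307, whereas the other NAc libraries were between 0.760 and 1.41. PL libraries were between -0.345 and 0.417 and IL libraries between -0.314 and 0.220. The NAc library of abstinence rat 2 was thus within the PL range of this scale.

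**Figure D2:**
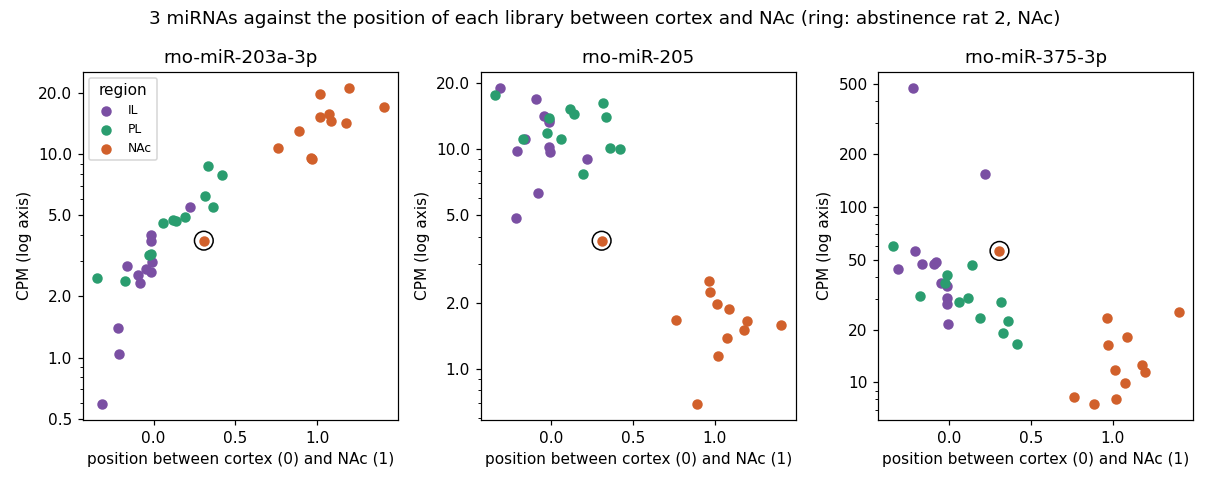
CPM (log axis) of rno-miR-203a-3p, rno-miR-205 and rno-miR-375-3p against the position of each library between cortex (0) and NAc (1), with each point 1 library coloured by region. The ringed point is the NAc library of abstinence rat 2, at position 0.307, which lies nearer to the cortical libraries than the other 11 NAc points do.

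The first comparison asked whether the miRNAs differed between the 3 regions of the same rats. rno-miR-203a-3p was upregulated and rno-miR-205 and rno-miR-375-3p were downregulated in the NAc relative to both cortices, and rno-miR-203a-3p was also lower in the IL than in the PL. rno-miR-31a-5p did not pass in any pair of regions. Of the 12 combinations of miRNA and region pair, 7 passed a fold change of at least 1.5 with a Benjamini-Hochberg adjusted p under 0.05 (edgeR quasi-likelihood test with the rat as a block). Regional differences were common in the table: 49.9% of the 457 miRNAs passed for NAc against PL, 63.0% for NAc against IL and 15.8% for IL against PL. Of the 4 miRNAs, 3, 3 and 1 passed in these comparisons. The median log2 fold change of all 457 miRNAs was 0.070, 0.099 and -0.025 in the same order. TMM centres the table by construction, and with total counts in place of TMM these medians were 0.41, 0.37 and 0.062.

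rno-miR-203a-3p had its highest level in the NAc, where its lowest, median and highest CPM over 12 rats were 3.76, 14.4 and 21.2. In the PL they were 2.37, 4.73 and 8.76. In the IL they were 0.591, 2.68 and 5.49. All NAc libraries other than that of abstinence rat 2 were above all PL and IL libraries, and the PL and IL ranges overlapped. The level was 2.75-fold higher in the NAc than in the PL (log2FC = 1.46 ± 0.25 SE, adjusted p = 1.12e-05) and 5.18-fold higher than in the IL (log2FC = 2.37 ± 0.26, adjusted p = 5.68e-09). It was higher in the NAc in 12 of 12 rats against either cortex. The within-rat log2 difference ran from 0.21 (abstinence rat 2) to 3.09 against the PL and from 0.78 (naive rat 3) to 4.95 (withdrawal rat 3) against the IL. Without the NAc library of abstinence rat 2 the log2FC was 1.54 against the PL and 2.44 against the IL.

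The IL had less rno-miR-203a-3p than the PL (log2FC = -0.91 ± 0.26, 1.88-fold, adjusted p = 0.0116), with a lower value in 10 of 12 rats. An exact two-sided permutation test over the sign changes of the 12 rats gave p = 0.00928. Fitted in each group alone, this cortical difference was -0.10 in naive rats (adjusted p = 0.998), -1.72 in withdrawal rats (adjusted p = 0.00801) and -0.77 in abstinence rats (adjusted p = 0.196). The call for the 12 rats thus had its largest part in the withdrawal group and was not made in naive or abstinence rats alone. The differences between NAc and each cortex passed in all 3 groups alone, with log2FC from 1.11 to 2.83.

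The opposite-strand neighbour rno-miR-203b-3p, chosen for its locus, was also higher in the NAc than in either cortex, at a far lower count. It had 171 counts over the 12 NAc libraries, from 0.235 to 1.60 CPM with a median of 1.03. It had 17 counts over the PL libraries, 5 of them at 0, and 8 over the IL libraries, 8 of them at 0. Its lowest NAc library was again that of abstinence rat 2, with the other 11 between 0.793 and 1.60 CPM. It was higher in the NAc in 12 of 12 rats against either cortex (adjusted p = 1.46e-06 against the PL and 1.85e-07 against the IL), and since most cortical libraries were under the floor of 3 counts no fold is given.

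rno-miR-205 was the reverse of rno-miR-203a-3p between cortex and NAc. Its lowest, median and highest CPM were 4.88, 10.7 and 19.1 in the IL. They were 7.76, 12.9 and 17.7 in the PL. They were 0.692, 1.66 and 3.84 in the NAc. No NAc library reached the lowest cortical library, and rno-miR-205 was the one of the 4 miRNAs whose NAc libraries did not overlap those of either cortex. The IL and PL ranges overlapped. Such separation was seen for 10.1% of all miRNAs between NAc and PL and for 16.8% between NAc and IL, and for 0.0% between IL and PL. The NAc level was 6.98-fold lower than the PL level (log2FC = -2.80 ± 0.21, adjusted p = 3.93e-12) and 6.12-fold lower than the IL level (log2FC = -2.61 ± 0.21, adjusted p = 1.72e-11).

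All 12 rats had less rno-miR-205 in the NAc than in either cortex (exact permutation p = 0.000488, the smallest possible with 12 rats). The within-rat log2 difference ran from -4.38 in abstinence rat 1 to -1.61 in withdrawal rat 1 against the PL, and from -3.33 to -0.94 (withdrawal rat 1) against the IL. IL and PL had a log2FC of -0.19 ± 0.19 (IL minus PL, adjusted p = 0.451), with a 95% interval from -0.56 to 0.18. A cortical difference of 1.5-fold was outside that interval. In the separate groups the NAc difference was between -2.98 and -2.56 and passed in each of them. Without the NAc library of abstinence rat 2 it was -2.93 against the PL and -2.74 against the IL.

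rno-miR-31a-5p was the most even of the 4 over regions. Its lowest, median and highest CPM were 11.9, 20.2 and 27.4 in the IL. They were 13.3, 24.8 and 34.2 in the PL. They were 15.3, 21.2 and 29.6 in the NAc. All 3 ranges overlapped over most of their width. The log2FC was -0.19 for NAc minus PL (95% interval -0.47 to 0.079, adjusted p = 0.22), 0.096 for NAc minus IL (-0.18 to 0.37, adjusted p = 0.552) and -0.29 for IL minus PL (-0.57 to -0.013, adjusted p = 0.109). None of these intervals reached a 1.5-fold difference. The level was lower in the NAc than in the PL in 10 of 12 rats (mean within-rat difference -0.20, exact permutation p = 0.0396) and lower in the IL than in the PL in 10 of 12 (mean -0.31, exact permutation p = 0.0718), while NAc and IL had 7 rats higher and 5 lower (exact permutation p = 0.479). The NAc minus PL value stayed between -0.29 and -0.20 when each rat was left out, and was 0.14 with total counts, where the median of all miRNAs was 0.41. The NAc minus IL value changed sign under some settings, and no direction is given for it.

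rno-miR-375-3p was highest in the IL and lowest in the NAc by median, with the widest spread of the 4. Its lowest, median and highest CPM were 21.5, 45.5 and 476 in the IL. They were 16.5, 29.5 and 59.9 in the PL. They were 7.53, 12.2 and 56.1 in the NAc. The NAc range overlapped both cortical ranges, in the IL through the libraries of withdrawal rat 1 (23.2 CPM), naive rat 4 (25.1) and abstinence rat 2 (56.1). The NAc level was 2.16-fold lower than the PL level (log2FC = -1.11 ± 0.33, adjusted p = 0.00449) and 3.77-fold lower than the IL level (log2FC = -1.91 ± 0.35, adjusted p = 1.58e-05).

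The NAc had less rno-miR-375-3p than the IL in 11 of 12 rats and less than the PL in 10 of 12, and abstinence rat 2 was an exception in both. Without the IL libraries of withdrawal rat 1 and naive rat 3, the NAc minus IL value was -1.47 (adjusted p = 6.72e-06). Without the NAc library of abstinence rat 2 it was -2.11, and the NAc minus PL value was -1.31 (adjusted p = 0.00086). The IL minus PL value was 0.80 ± 0.34 (95% interval 0.14 to 1.47, adjusted p = 0.0647), higher in the IL in 8 rats and lower in 4 (exact permutation p = 0.0312), and it was 0.38 (adjusted p = 0.213) without the 2 IL libraries. The NAc minus PL difference was -1.29 in naive rats (adjusted p = 0.0493), -1.18 in withdrawal rats (adjusted p = 0.129) and -0.85 in abstinence rats (adjusted p = 0.0917), so only the naive group passed alone.

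Marker lists named for other cells also differed between regions. The summed level of 6 vascular miRNAs was 2495 to 13463 CPM in the NAc, 1529 to 8561 CPM in the PL and 1565 to 5664 CPM in the IL, with 4 higher and 1 lower in the NAc than in the IL. That of 5 endocrine and pituitary miRNAs was 4323 to 26690 CPM in the NAc, 956 to 4631 CPM in the PL and 1218 to 4912 CPM in the IL, with 3 higher and 1 lower in the NAc than in either cortex, and the lower one was rno-miR-375-3p itself. Most of this sum was rno-miR-7a-5p and rno-miR-7b, with NAc medians of 10853 and 1977 CPM. rno-miR-7a-2-3p had medians of 54.7 CPM in the NAc, 60.0 in the PL and 60.8 in the IL. The members of this list thus differed in direction, and its sum does not measure an amount of endocrine cells. Of 4 blood cell miRNAs, 2 were higher and 2 lower in the NAc than in either cortex. Over all 457 miRNAs, 28.0% were higher and 21.9% lower in the NAc than in the PL. Against the IL, 33.9% were higher and 29.1% lower, so many members of any list pass. The part of these cells in the regional levels was not tested.

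**Figure D3:**
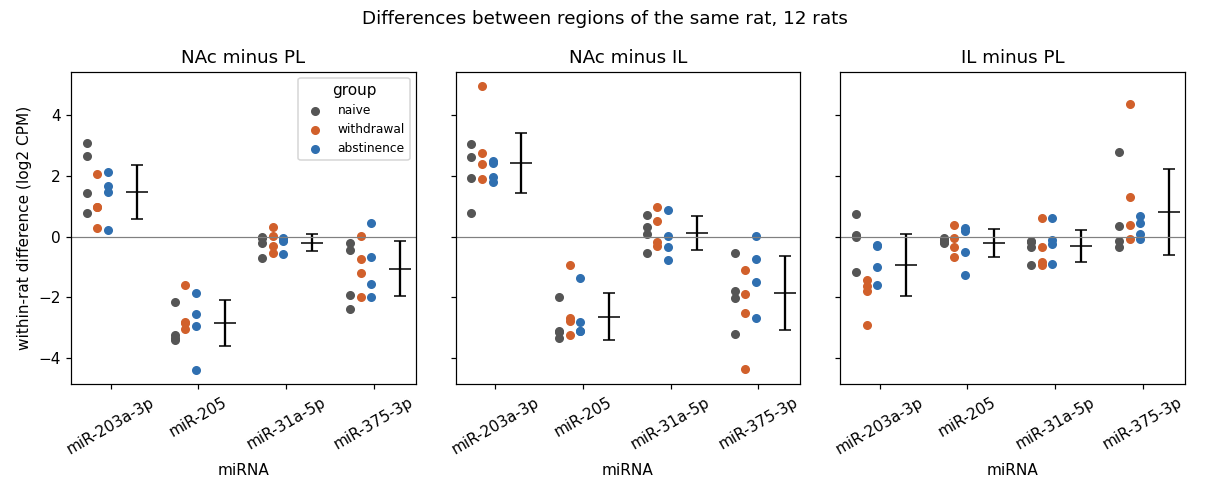
Differences in log2 CPM between regions of the same rat for the 4 miRNAs, with each point 1 rat coloured by group and the black mark the mean ± SD of 12 rats. All 12 points of rno-miR-203a-3p are above 0 and all 12 of rno-miR-205 below 0 in the NAc minus PL and NAc minus IL panels, and rno-miR-31a-5p lies on both sides of 0 in each panel, below 0 in 10 of 12 rats for NAc minus PL and for IL minus PL.

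Within the cortical regions, the ends of the position scale also held the lowest and highest rno-miR-203a-3p levels. The 3 IL libraries lowest on the scale, those of withdrawal rat 3 (-0.314), withdrawal rat 1 (-0.219) and abstinence rat 2 (-0.21), had the 3 lowest rno-miR-203a-3p levels of the IL (0.591, 1.39 and 1.04 CPM). The IL library highest on the scale, that of naive rat 3 (0.220), had the highest (5.49 CPM). The middle of the IL followed less closely. Counted from the lowest, withdrawal rat 2 was 4th in position and 8th in level, and abstinence rat 4 was 9th and 6th. In the PL, the lowest 2 positions, in naive rats 2 and 1 (-0.345 and -0.176), had the lowest 2 levels (2.46 and 2.37 CPM), and the highest 4 positions held the highest 4 levels. This is a description over libraries that share the scaling of each library, and rno-miR-203a-3p itself was not used in the scale.

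The second comparison asked whether the miRNAs differed between the groups of rats within a region. Of the 36 combinations of miRNA, region and group pair, 1 passed the thresholds of the study, an unadjusted p under 0.05 and a fold change of 1.5 or more (edgeR, RIN as covariate). Over all miRNAs 4.06% of the combinations passed, so 1 of 36 was near the background. The share of the 457 miRNAs that passed was 6.35% at withdrawal against naive, 8.32% at abstinence against naive and 6.35% at abstinence against withdrawal in the IL. In the same order it was 4.81%, 2.41% and 3.5% in the PL and 2.84%, 1.09% and 0.875% in the NAc. No combination had an adjusted p under 0.05. In 0 of 36 were the 4 rats of each group separate in level. Such separation was seen, in the same order of comparisons, for 7.44%, 7.0% and 3.94% of all miRNAs in the IL. It was seen for 2.19%, 1.53% and 5.47% in PL libraries, and for 1.09%, 1.75% and 0.219% in NAc libraries. An exact permutation test over the 70 splits of 4 rats against 4, which cannot go below p = 0.0286, gave no p under 0.05 among the 36.

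The combination that passed was rno-miR-375-3p in the IL, abstinence against withdrawal, where 6.35% of all miRNAs passed. Its CPM in the IL was 27.8, 47.0, 153 and 36.8 in naive rats 1 to 4. It was 476, 47.4, 44.0 and 21.5 in withdrawal rats 1 to 4. It was 48.5, 55.7, 30.4 and 35.2 in abstinence rats 1 to 4. All abstinence rats lay within the range of the withdrawal rats, and withdrawal rat 1 was far above the next rat of its group (47.4 CPM). The fitted log2FC was -1.88 ± 0.72 (p = 0.0134, adjusted p = 0.529), whereas the exact permutation test gave p = 0.743. Without withdrawal rat 1 the value was 0.063, with the opposite sign (adjusted p = 0.994).

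The other group comparisons of rno-miR-375-3p did not pass. In the IL the log2FC was 1.11 at withdrawal against naive (adjusted p = 0.508) and -0.77 at abstinence against naive (adjusted p = 0.663). The first changed sign without withdrawal rat 1 (-0.96) and the second without naive rat 3 (0.048). In the PL its CPM was 30.9, 59.9, 22.5 and 28.8 in naive rats, 23.1, 19.1, 46.9 and 16.5 in withdrawal rats, and 30.2, 41.1, 28.6 and 36.8 in abstinence rats. In the NAc it was 8.07, 11.5, 16.4 and 25.1, then 23.2, 8.22, 11.8 and 9.97, then 7.53, 56.1, 18.1 and 12.5 in the same order. The groups overlapped in both regions. The largest of these differences was in the NAc, abstinence against withdrawal (log2FC = 0.69, adjusted p = 0.999), and was 0.046 without abstinence rat 2 and -0.047 without the NAc library of that rat alone.

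rno-miR-203a-3p had its largest group differences in the cortices, and none passed in the edgeR fit with all 12 rats. The study's own limma-voom analysis, with RIN and the same thresholds, listed rno-miR-203a-3p as lower in the IL at withdrawal against naive. The adjusted p given there was also not under 0.05. In the fits here limma-voom did not call rno-miR-203a-3p between groups. Its IL level was 4.01, 2.54, 5.49 and 2.73 CPM in naive rats 1 to 4. It was 1.39, 2.84, 0.591 and 2.94 CPM in withdrawal rats, and 2.32, 1.04, 3.73 and 2.63 CPM in abstinence rats. The withdrawal value was -0.74 ± 0.46 on the log2 scale against naive (adjusted p = 0.508). It was -0.27 without withdrawal rat 3, -0.48 without withdrawal rat 1 or naive rat 3, and passed the thresholds without withdrawal rat 2 (-1.07) or abstinence rat 2 (-0.90). In the PL it was 2.37, 2.46, 5.49 and 6.20 CPM in naive rats, 4.91, 8.76, 4.72 and 7.92 in withdrawal rats, and 4.74, 3.25, 4.60 and 3.19 in abstinence rats. Here the withdrawal value was 0.62 ± 0.42 above naive (adjusted p = 0.643), in the direction opposite to that in the IL. It was 0.41 without naive rat 1, and passed without withdrawal rat 3 (0.82) or naive rat 4 (0.97). Withdrawal and abstinence rats were nearly separate in the PL, with an exact permutation p of 0.0571 and a fitted log2FC of -0.54 (adjusted p = 1) for abstinence against withdrawal.

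In the NAc, rno-miR-203a-3p was at 15.2, 21.2, 9.44 and 17.0 CPM in naive rats. It was at 9.59, 10.8, 19.7 and 15.7 CPM in withdrawal rats and at 13.1, 3.76, 14.6 and 14.2 CPM in abstinence rats. The groups overlapped, and the log2FC of the 3 comparisons was between -0.36 and -0.13. Without the NAc library of abstinence rat 2, abstinence against naive was -0.13 in place of -0.36 and abstinence against withdrawal was 0.087 in place of -0.13.

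rno-miR-205 was close between groups in all regions. In the PL its CPM was 11.1, 17.7, 10.2 and 16.3 in naive rats, 7.76, 14.1, 14.5 and 10.1 in withdrawal rats, and 15.3, 13.9, 11.2 and 11.9 in abstinence rats. In the IL it was 10.3, 17.0, 9.00 and 14.2, then 4.88, 11.1, 19.1 and 9.76, then 6.34, 9.86, 13.6 and 13.4. In the NAc it was 1.14, 1.65, 2.23 and 1.58, then 2.51, 1.68, 1.99 and 1.38, then 0.692, 3.84, 1.88 and 1.51. The 9 group differences lay between -0.36 and 0.28 on the log2 scale, and the lowest exact permutation p was 0.4. Without the NAc library of abstinence rat 2, the NAc values were -0.28 in place of 0.16 (abstinence against naive) and -0.51 in place of -0.12 (abstinence against withdrawal, adjusted p = 0.998).

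rno-miR-31a-5p behaved likewise, with 9 group differences between -0.23 and 0.29 and a lowest exact permutation p of 0.229. Its IL level was 18.0, 23.2, 20.2 and 22.1 CPM in naive rats, 19.3, 11.9, 20.3 and 19.2 in withdrawal rats, and 20.9, 13.5, 24.2 and 27.4 in abstinence rats. In the PL it was 34.2, 29.6, 22.2 and 24.8, then 24.7, 22.8, 13.3 and 34.1, then 22.6, 25.2, 28.6 and 18.1 CPM. In the NAc it was 29.6, 29.1, 21.5 and 15.3, then 17.1, 23.3, 16.5 and 27.4, then 21.0, 24.5, 19.2 and 16.2 CPM. The groups overlapped in every region. With counts summed over the 3 regions of each rat (483 miRNAs tested), 0 of 12 comparisons of the 4 miRNAs passed, against 1.86%, 2.07% and 1.86% of all miRNAs for withdrawal against naive, abstinence against naive and abstinence against withdrawal. The largest was rno-miR-375-3p at abstinence against withdrawal (log2FC = -0.60, adjusted p = 0.964), which turned to 0.54 without withdrawal rat 1.

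**Figure D4:**
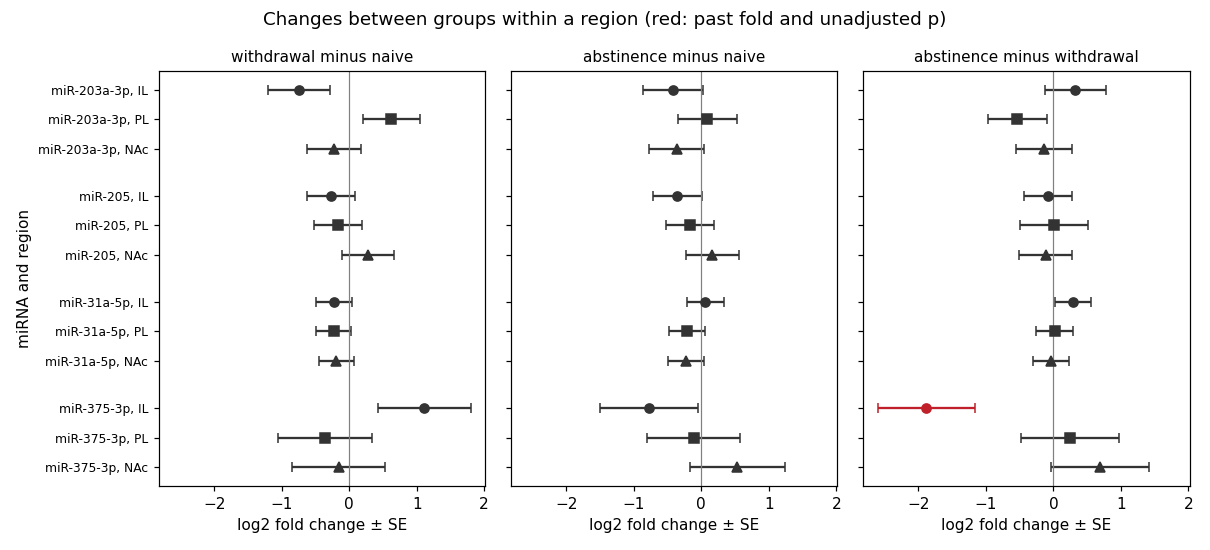
Log2 fold changes ± SE between groups within a region for the 4 miRNAs, with circles for IL, squares for PL and triangles for NAc. The single red mark, rno-miR-375-3p in the IL at abstinence against withdrawal (-1.88), is the one combination of 36 past the fold and unadjusted p thresholds.

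The third comparison asked whether a change between groups differed from region to region, which the same model tests as a difference of 2 changes. Of the 36 such differences, 3 passed the thresholds of fold and unadjusted p, against 4.33% over all miRNAs, and none had an adjusted p under 0.05. For withdrawal against naive, abstinence against naive and abstinence against withdrawal, the share of all miRNAs was 6.78%, 3.72% and 0.875% between NAc and PL. It was 1.09%, 4.16% and 1.53% between NAc and IL, and 9.85%, 8.32% and 2.63% between IL and PL. The change of rno-miR-203a-3p at withdrawal against naive was lower in the IL than in the PL (difference of log2FC = -1.37 ± 0.63, adjusted p = 0.443). It no longer passed in 5 of 12 fits with a rat left out (those without abstinence rat 4, withdrawal rat 1 or 3, or naive rat 1 or 3, with -1.09 without withdrawal rat 3, the value nearest to 0), nor without the IL libraries of withdrawal rat 1 and naive rat 3 (-0.95). The corresponding value for abstinence against naive was -0.51 (adjusted p = 0.794). The position scale moved in the same direction. Its median in the IL was -0.032 in naive, -0.192 in withdrawal and -0.049 in abstinence rats, and in the PL it was 0.069, 0.261 and 0.022. The part of position in this difference was not tested.

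rno-miR-375-3p gave the other 2. Its change at abstinence against withdrawal was higher in the NAc than in the IL by 2.57 ± 0.98 on the log2 scale (adjusted p = 1). It was lower in the IL than in the PL (-2.13 ± 0.97, adjusted p = 0.965). Both were lost without withdrawal rat 1, at 0.89 and -0.060. The NAc value was also 1.93 without abstinence rat 2 and no longer passed.

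The IL libraries with the most rno-miR-375-3p were examined against miRNAs of choroid plexus and ependyma, the secretory and ciliated linings of the ventricles. The list had 12 rows, of which 8 were tested, and its summed IL level was between 1434 and 1980 CPM in naive rats, 1270 and 2844 in withdrawal rats, and 1168 and 1748 in abstinence rats. All 8 were highest in withdrawal rat 1, and in 6 of 8 the 2 highest IL libraries were withdrawal rat 1 and naive rat 3. The exceptions were rno-miR-204-3p and rno-miR-211-5p, at 136 and 39.8 CPM in naive rat 3, near the IL medians of 138 and 38.8. rno-miR-204-5p was at 2152 CPM in withdrawal rat 1 and 1556 in naive rat 3, against a median of 1298 in the other 10. rno-miR-34b-3p, from the same cluster as rno-miR-34c-5p, was at 28.0 and 21.4 CPM in withdrawal rat 1 and naive rat 3 against a median of 4.34 CPM in the other 10. rno-miR-449a-5p, also of multiciliated cells, was at 2.79 and 2.38 CPM against a median of 0.0454, and rno-miR-449a-3p and rno-miR-449c-3p had no count in any library. Between regions the list did not follow rno-miR-375-3p. Its sum had medians of 2217 CPM in the NAc (1548 to 2610), 1568 in the IL and 1538 in the PL. The median of rno-miR-375-3p was lowest in the NAc (12.2 CPM). The part of choroid plexus or ependyma in the rno-miR-375-3p levels was not tested.

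The other miRNAs of these 2 libraries did not move as a block. rno-miR-203a-3p was at 1.39 CPM in withdrawal rat 1 and 5.49 CPM in naive rat 3, on opposite sides of the IL median of 2.68. rno-miR-205 was at 4.88 and 9.00 CPM, rno-miR-31a-5p at 19.3 and 20.2 CPM. rno-miR-7a-5p, a miRNA shared with rno-miR-375-3p by pituitary and islet cells, was at 957 CPM in withdrawal rat 1 and 3527 CPM in naive rat 3 against 751 to 2002 CPM in the other 10 IL libraries. The first of these values was inside the range of the other 10 and the second above it. rno-miR-7a-5p was also far higher in the NAc (median 10853 CPM) than in the IL (1239 CPM). The IL library of naive rat 3 was the nearest of the IL to the NAc on the position scale (0.220). The part of endocrine tissue in the rno-miR-375-3p levels was not tested.

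**Figure D5:**
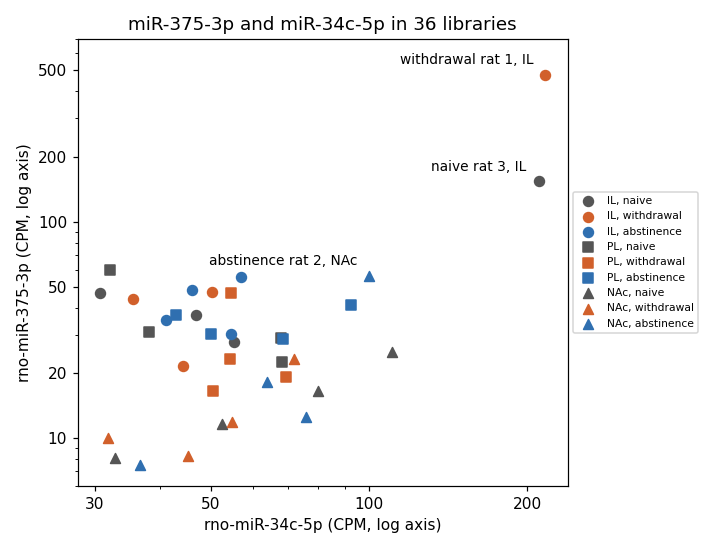
rno-miR-375-3p against rno-miR-34c-5p in CPM (both log axes) in the 36 libraries, with symbols for region and colours for group. The IL libraries of withdrawal rat 1 (476 and 216 CPM) and naive rat 3 (153 and 210 CPM) lie apart from the other IL circles in both miRNAs, and the NAc library of abstinence rat 2 (56.1 and 100.1 CPM) is the highest NAc triangle for rno-miR-375-3p.

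The deviations of the 4 miRNAs from the mean of their group and region were compared over the 36 libraries, as a description. The pairwise Pearson r between the 4 ranged from -0.38 (rno-miR-203a-3p and rno-miR-375-3p) to 0.064 (rno-miR-205 and rno-miR-375-3p), so no pair of them rose and fell together. The miRNAs most like rno-miR-203a-3p were rno-miR-450a-5p (r = 0.82), rno-miR-22-5p (0.81), rno-miR-137-3p (0.80), rno-miR-379-3p (0.79) and rno-miR-98-5p (0.78). Those most like rno-miR-205 were rno-miR-132-3p (0.59), rno-miR-490-5p (0.56), rno-miR-206-3p (0.53), rno-miR-551b-5p (0.51) and rno-miR-6315 (0.49). rno-miR-31a-5p had the closest companions, rno-miR-93-5p (0.88), rno-miR-342-3p (0.84), rno-miR-361-5p (0.83), rno-miR-505-3p (0.83) and rno-miR-3085 (0.81). Those of rno-miR-375-3p were rno-miR-34b-5p (0.76), rno-miR-666-5p (0.74), rno-miR-92b-5p (0.72), rno-miR-204-3p (0.71) and rno-miR-34c-5p (0.71). Without the IL libraries of withdrawal rat 1 and naive rat 3 these were 0.48, 0.71, 0.73, 0.63 and 0.39. All these values share the library, its depth and its scaling.

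Other epithelial miRNAs were described over the same libraries. In a list of 5 tested miRNAs (rno-miR-203b-3p, rno-miR-184, rno-miR-192-5p, rno-miR-194-3p and rno-miR-194-5p), 3 were higher and 2 lower in the NAc than in either cortex, and the median log2FC was 1.40 against the PL and 2.07 against the IL. Over all miRNAs 49.9% passed against the PL and 63.0% against the IL. rno-miR-192-5p and rno-miR-194-5p, which are expressed from shared clusters in gut, liver and kidney, rose by 1.66 and 1.40 against the PL. The other arm, rno-miR-194-3p, went the opposite way, with medians of 2.09 CPM in the NAc, 2.80 in the PL and 4.28 in the IL. rno-miR-184, known from cornea and lens, was lower in the NAc by log2FC = -2.39 against the PL and -2.25 against the IL, the same direction as rno-miR-205. Between groups 0 were higher and 5 lower among 45 combinations, where 4.06% of all combinations passed in either direction, among them rno-miR-203b-3p in the PL at abstinence against withdrawal (log2FC = -2.69, adjusted p = 0.948), where all libraries of both groups held few or no counts.

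The miR-200 family and the miR-183 cluster, miRNAs of simple epithelium and of sensory cells, set withdrawal rat 3 apart. The summed miR-200 level was 846 CPM in its PL library and 527 CPM in its NAc library, against at most 99.0 CPM (median 14.5) in the other 34 libraries. The summed miR-183 cluster level was 1900 and 845 CPM, against at most 136 CPM (median 22.8). In these PL and NAc libraries the 4 miRNAs stayed within the range of the other libraries of the region, with 1 exception. In that PL library rno-miR-203a-3p was at 4.72 CPM and rno-miR-205 at 14.5 CPM, both inside the range of the other PL libraries, while rno-miR-31a-5p was at 13.3 CPM, the lowest of the PL (the next was at 18.1 CPM), and rno-miR-375-3p at 46.9 CPM, the second highest of the PL. In the NAc library they were at 19.7, 1.99, 16.5 and 11.8 CPM, all inside the NAc range, with rno-miR-203a-3p the second highest. The IL library of withdrawal rat 3 had the highest miR-200 and miR-183 cluster sums of the IL (71.0 and 99.6 CPM). It also had the lowest rno-miR-203a-3p (0.591 CPM) and the highest rno-miR-205 (19.1 CPM) of the IL. Its rno-miR-31a-5p and rno-miR-375-3p were inside the IL range.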

How the data were processed

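The read counts were deposited by the authors as raw whole numbers per mature miRNA, 1 table of 36 libraries, made with the CAP-miRseq workflow from single-end small RNA reads. The study's methods and the submitters' processing notes (mRatBN7.2, rn7) name different genome builds; sequences and coordinates here are RefSeq's on GRCr8. Library totals are given in the report. Floors from counts cover counting error only. The intervals of the regional differences come from the fit blocked on the rat and include the spread between libraries. Groups and regions came from the labels, and rats from the study's table of RNA samples, 1 library by elimination.

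Models were fitted with edgeR 4.0.16 under R 4.3.3, and with DESeq2 1.42.0 and limma 3.58.1 as alternatives; summaries and figures used Python 3.11.15, numpy 2.4.6, pandas 2.3.3 and matplotlib 3.10.9. filterByExpr (minimum count 10, minimum total count 15) over the 9 combinations of group and region kept 457 miRNAs, scaled by TMM (factors 0.69 to 1.34). Groups were compared in 1 quasi-likelihood fit of all 36 libraries with RIN, and regions in a fit blocked on the rat. Log2 CPM used a prior count of 0.5; SE was taken as the size of the log2FC over the square root of F and is approximate, as are the intervals. Fits were tested on simulated data. Exact permutation tests were two-sided.

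Regions of a rat are the same animal: the median r of their deviations was 0.265 (IL and PL), 0.147 (NAc and IL) and 0.267 (NAc and PL), and the consensus correlation was 0.117. No duplicate was found among 54 pairs of libraries of a group and region (0 identical). The members and marker lists were chosen with earlier results of these data known. Named miRNAs are the 4 members and their other arms, the 5 most like each, and list members that are the most expressed or pass in a comparison naming a member; rno-miR-203b-3p, rno-miR-34b-3p, rno-miR-34c-5p, rno-miR-449a-5p, rno-miR-7a-5p, rno-miR-184, rno-miR-192-5p and rno-miR-194-5p are named from the lists after their values were seen. Alternatives were other tools, scalings, filters, covariates, the rat block, single regions or groups, and leaving out rats or libraries, with the filter and TMM repeated on the libraries kept.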

Additional observations from a re-analysis of the deposited data

Results flagged for a closer look

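Among 36 groups of 4 libraries, 2 held a value far from the other 3 by Dixon's test, where chance gives about 1 in 20. rno-miR-203a-3p was at 3.76 CPM in the NAc of abstinence rat 2, with 13.1, 14.2 and 14.6 CPM in the other abstinence rats, and the same library was nearest to cortex on the position scale (0.307). rno-miR-31a-5p was at 11.9 CPM in the IL of withdrawal rat 2, with 19.2, 19.3 and 20.3 CPM in the other withdrawal rats. That rat and abstinence rat 2 had the 2 lowest RIN of the IL and its 2 lowest rno-miR-31a-5p levels. In the NAc, abstinence rat 2 and naive rat 3 shared the lowest RIN and had the 2 lowest rno-miR-203a-3p levels. Abstinence rat 4, with the next lowest RIN there, was at 14.2 CPM. The lowest RIN of all (7.4), in the PL of abstinence rat 2, went with neither miRNA at its PL minimum. The part of RIN in the flagged values was not tested.

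Changes that differed between regions at an unadjusted p under 0.05 were found in 3 of 36 tests, with no adjusted p under 0.05. The change of rno-miR-375-3p at abstinence against withdrawal differed by 2.57 (log2 scale) between NAc and IL and by -2.13 between IL and PL. Without withdrawal rat 1 they were 0.89 and -0.060. The change of rno-miR-203a-3p at withdrawal against naive differed by -1.37 between IL and PL, and no longer passed in 5 of 12 fits with a rat left out.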

How the results depend on the processing

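The count of group differences within a region was 1 of 36. It was 0 with limma-voom, 0 with limma-voom and the rat as a replicate block, 2 without RIN, 0 in fits of 1 region alone, 0 without the IL libraries of withdrawal rat 1 and naive rat 3, and 0 to 3 when each rat was left out in turn. The count of changes that differed between regions, 3 of 36, was 1 with limma-voom, 1 with limma-voom and the rat block, 0 without those IL libraries and 0 to 4 when each rat was left out (0 without withdrawal rat 1, 1 without abstinence rat 4, 4 without withdrawal rat 3). The 7 of 12 regional calls stayed between 5 and 8 in every alternative, with 8 when the rat block was removed and 7 to 8 when each rat was left out. The count over whole rats was 0 throughout.

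Without the IL libraries of withdrawal rat 1 and naive rat 3, rno-miR-375-3p in the IL turned to -0.15 (withdrawal against naive) and 0.051 (abstinence against withdrawal). Without withdrawal rat 1 the same values were -0.96 and 0.063, and that over whole rats (abstinence against withdrawal) was 0.54. Without naive rat 3, abstinence against naive was 0.048. Without the NAc library of abstinence rat 2, abstinence against withdrawal in the NAc was -0.047. With each rat left out in turn these IL values of rno-miR-375-3p ran from -0.96 to 2.11 (withdrawal against naive, which passed in 3 of 12), from -1.02 to 0.048 (abstinence against naive) and from -2.41 to 0.063 (abstinence against withdrawal). rno-miR-31a-5p turned sign for NAc minus PL with total counts in place of TMM (0.14), and for NAc minus IL in abstinence rats alone (-0.14), without the 2 IL libraries (-0.012) and in 4 of 12 fits with a rat left out (-0.044 to 0.039 over all 12). rno-miR-375-3p passed for IL minus PL without the rat block (1.25) and in 4 of 12 fits with a rat left out. The cortical difference of changes of rno-miR-203a-3p no longer passed in 5 of 12 fits with a rat left out (abstinence rat 4, withdrawal rats 1 and 3, naive rats 1 and 3) or without the 2 IL libraries (-0.95), and its IL change at withdrawal passed without RIN (-0.94). Total counts, single groups other than naive, and the left-out libraries were chosen after seeing the data. Low counts limit rno-miR-203a-3p in the IL (6 to 53 per library) and rno-miR-205 in the NAc (9 to 49).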
